A study of Mus musculus with 11 samples.

Results

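YAP is a transcriptional coactivator encoded by Yap1, and the comparison here is between cell lines from mouse liver tumours that carried different mutants of it. Of the 11 RNA sequencing libraries in the series, 6 were used: 3 whose mutation label reads YAP-S5A, spelled YAP-5SA in the series text and here, and 3 whose label reads YAP-S127A. The libraries were chosen by that label alone, and the 5 TAZ-S89A libraries entered neither the comparison nor its estimate of spread. Both groups are lines derived from liver tumours and both carried an activated YAP, so no group without a mutant was analysed here. The labels give no treatment, time, strain, age, promoter or means of introducing the mutant. Nor do they tell if separate tumours, lines or cultures gave the 3 libraries of a group. The p-values thus reflect the spread among these libraries alone, possibly a technical one, and the mutant cannot be told apart from the identity of the line.

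The kinases of the Hippo pathway phosphorylate YAP and its paralog TAZ (gene Wwtr1) on serines, which keeps them in the cytoplasm and marks them for destruction. Unphosphorylated YAP and TAZ enter the nucleus and switch on genes through the TEAD DNA-binding factors, often together with AP-1. YAP-S127A has alanine at the serine in its name, whose phosphorylation creates a binding site for 14-3-3 proteins, whereas YAP-5SA has alanine at that serine and at the other sites of the same kinases, including those that lead to degradation. In the liver, active YAP enlarges the organ, moves hepatocytes towards a biliary or progenitor state and drives cancer.

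Library totals ranged from 32314692 to 49159713 counts. Levels are given as CPM, counts scaled to a common library size, as mean ± SD with n = 3 unless the libraries are listed, always in the order of replicates 1, 2 and 3. The correlation of log2 CPM across genes, which are not independent replicates, was 0.987 to 0.994 within YAP-5SA, 0.993 to 0.994 within YAP-S127A and 0.842 to 0.854 between the groups. No 2 libraries matched within sampling noise, their counts giving a chi-square of at least 6.34 per degree of freedom. YAP-5SA replicate 2 stood apart from its group: of 168 genes with an average log2 CPM of at least 4 and a more than 2-fold range within YAP-5SA, it was the farthest library in 154. In YAP-S127A 6 genes had such a range. Without it, 6299 genes were called higher and 6340 lower in place of the 5785 and 5739 below, and list counts that moved by over 1.5 times are given beside the result. In bulk RNA, fewer cells of a type and less RNA per cell cannot be told apart.

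The 2 groups of lines held largely different transcriptomes, with keratins, Hoxb and Hoxc genes, p53 targets and glutathione enzymes higher in YAP-5SA and collagens, matrix glycoproteins and contractile genes lower. Of 17518 genes tested, 11524 (65.8%) passed an adjusted p of 0.05 (Benjamini-Hochberg) in edgeR's quasi-likelihood test and are referred to as called. Of these, 5785 (33.0%) were higher in YAP-5SA and 5739 (32.8%) lower. A difference of at least 1 on the log2 scale was called for 6163 genes (35.2%), of which 3114 (17.8%) were higher and 3049 (17.4%) lower. The libraries of the groups did not overlap for 12423 genes (70.9%), with 6149 (35.1%) higher and 6274 (35.8%) lower. The median log2 fold change, YAP-5SA minus YAP-S127A, was -0.00 over all genes tested, and the median size of a called difference was 1.07. Because most genes were called, each list below is read against these shares. A gene's log2 fold change and its standard error (SE) follow it in parentheses.

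**Figure D1:**
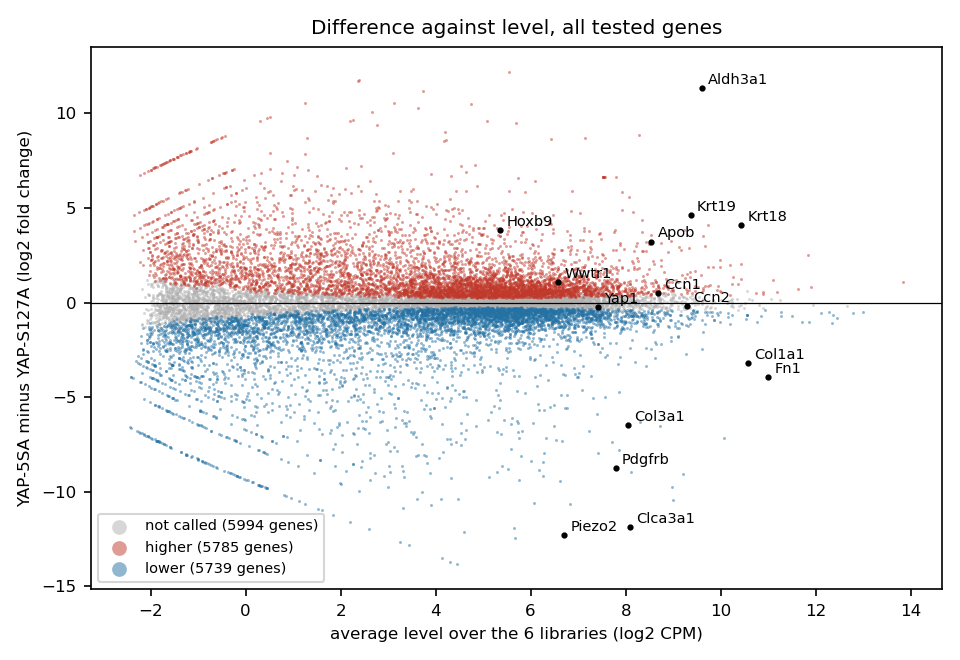
Each point is a tested gene, with the average log2 CPM over the 6 libraries on the x axis and the log2 fold change, YAP-5SA minus YAP-S127A, on the y axis. The 5785 genes called higher (red) and 5739 called lower (blue) spread to both sides of 0 at every level, with Aldh3a1, Krt18 and Krt19 far above and Piezo2, Clca3a1 and Pdgfrb far below.

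Among the coactivators and their DNA-binding partners, Wwtr1 was higher in YAP-5SA and Tead1, Tead2 and Tead3 were lower, while Yap1 itself was not called. Yap1 (Entrez gene 22601, chromosome 9, 7931999 to 8004638 in GRCm38) stood at 149.8, 161 and 164 CPM in YAP-5SA against 197, 183 and 170.3 in YAP-S127A. The groups did not overlap, but the difference of -0.22 (SE 0.12, adjusted p = 0.143) was not called. With the least correlated library of each group left out, YAP-5SA replicate 2 and YAP-S127A replicate 3, its adjusted p was 0.00932. These counts do not separate the transcript of the mouse gene from that of a mutant copy. Wwtr1 (chromosome 3, 57455644 to 57575910), which encodes TAZ, stood at 121, 142 and 127.4 CPM in YAP-5SA against 62.0, 60.9 and 62.8 in YAP-S127A, 1.07 higher (SE 0.12, adjusted p = 1.88e-05). Every YAP-5SA library held more of it than any YAP-S127A library.

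The TEAD genes moved the other way. Tead1, with the highest level of the 4 per length, was at 227, 189 and 242 CPM against 398, 366 and 328 (-0.73, SE 0.15), and Tead2 at 39.1, 35.0 and 37.4 against 63.0, 63.0 and 58.6 (-0.73, SE 0.10). Tead3 showed the largest difference, at 11.9, 7.57 and 12.1 CPM in YAP-5SA against 42.1, 41.0 and 36.4 in YAP-S127A (-1.92, SE 0.17), without overlap. Tead4 was borderline at -0.35 (SE 0.14, adjusted p = 0.0449). Its call was lost without YAP-5SA replicate 1 (adjusted p = 0.0542), 2 (0.0509) or 3 (0.0528) and without YAP-S127A replicate 1 (0.154) or 2 (0.141). The Tead4 call was also lost with DESeq2 (0.0523), and in edgeR with all 11 libraries in the fit (0.0596). On the length-adjusted scale of the authors' nRPKM, Yap1 was at 33.3 ± 1.60 in YAP-5SA and 38.5 ± 2.69 in YAP-S127A, Wwtr1 at 24.0 ± 1.80 and 11.4 ± 0.143, and Tead1 at 19.4 ± 2.59 and 32.1 ± 3.05. Yap1 transcripts thus exceeded Wwtr1 transcripts in both groups, by less in YAP-5SA. Of the Vestigial-like proteins, which bind TEADs in place of YAP, Vgll4 was higher (0.90, SE 0.09). Vgll3 had an adjusted p of 0.0586 (0.23, SE 0.10) and was called once YAP-5SA replicate 2 was left out, at 0.0361.

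The list of YAP/TAZ-TEAD target genes split in both directions. Of 29 tested members, 11 were higher in YAP-5SA, 13 were lower and 5 were not called, with a median of -0.31. The widely used reporters of YAP activity did not move together. Ccn1, encoding the matricellular protein CYR61, was at 501, 448 and 492 CPM in YAP-5SA against 362, 329 and 322 in YAP-S127A, and was higher by 0.51 (SE 0.13, adjusted p = 0.00606). Ccn2, encoding CTGF, was at 590.4, 574 and 592 CPM against 684, 649 and 647 and was not called (-0.17, SE 0.13, adjusted p = 0.2504). The muscle ankyrin-repeat gene Ankrd1 was lower, at 119, 119 and 126 against 245, 231 and 231 (-0.96, SE 0.12), with no overlap. Amotl2, a feedback inhibitor that binds YAP, was at 812, 603 and 835 against 674, 649 and 589. Its difference of 0.23 (SE 0.16) was not called at an adjusted p of 0.221, with replicate 2 of YAP-5SA inside the YAP-S127A range. Without that library Amotl2 was called higher (0.38, adjusted p = 0.00704).

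The upstream sequences of 3 of these reporters and of F3, which encodes tissue factor and had the largest increase of the list, are shown because they carry the letters that TEAD or AP-1 factors recognise. They are the 250 bases before a RefSeq start in GRCm38.p6, 5′ to 3′ on the gene's strand, with matches in capitals. For Ccn1, Ankrd1 and F3 that start is the edge of the annotated gene. For Amotl2 it lies inside the gene, whose span is 102717091 to 102733418. The motif searched on both strands in Ccn1 (chr3:145649986-145650235, minus strand), Amotl2 (chr9:102717554-102717803, plus strand) and Ankrd1 (chr19:36119845-36120094, minus strand) was GGAATG, which reads CATTCC on the other strand. In F3 (chr3:121723287-121723536, plus strand) it was TGANTCA, which covers the AP-1 site, TGAGTCA or TGACTCA, but is wider than it. The F3 match TGAGTCA is such a site, and the F3 match TGAATCA is not.
Ccn1: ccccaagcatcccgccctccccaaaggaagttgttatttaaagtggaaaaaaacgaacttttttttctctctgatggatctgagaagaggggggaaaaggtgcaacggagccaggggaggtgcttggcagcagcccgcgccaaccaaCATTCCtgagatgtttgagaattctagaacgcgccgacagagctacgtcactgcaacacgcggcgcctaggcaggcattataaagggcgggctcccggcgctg
Amotl2: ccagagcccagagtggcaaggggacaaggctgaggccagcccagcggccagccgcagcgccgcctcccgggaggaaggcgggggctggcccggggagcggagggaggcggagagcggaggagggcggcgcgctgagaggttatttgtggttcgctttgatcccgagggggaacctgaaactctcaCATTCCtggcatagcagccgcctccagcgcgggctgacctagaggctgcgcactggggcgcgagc
Ankrd1: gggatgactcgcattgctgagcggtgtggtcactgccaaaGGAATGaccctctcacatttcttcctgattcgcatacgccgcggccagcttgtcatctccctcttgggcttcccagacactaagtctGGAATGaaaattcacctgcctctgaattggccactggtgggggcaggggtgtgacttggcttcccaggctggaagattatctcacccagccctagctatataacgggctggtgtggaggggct
F3: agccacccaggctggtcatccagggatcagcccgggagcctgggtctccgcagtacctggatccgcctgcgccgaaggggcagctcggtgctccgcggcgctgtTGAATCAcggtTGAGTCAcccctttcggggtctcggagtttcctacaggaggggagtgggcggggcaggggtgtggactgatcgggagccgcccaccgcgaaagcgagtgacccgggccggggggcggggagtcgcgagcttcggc
Ccn1 holds its match 103 bases and Amotl2 65 bases before the start, whereas Ankrd1 holds 2, at 210 and 123 bases. Among these 3 genes the TEAD letters thus stand before a gene that was higher, a gene that was not called and a gene that was lower. GGAATG was present in 8 of the 21 tested target genes with such a window, beside 13.4% of all 12287 tested genes with one. Over all 32851 windows, of tested genes or not, its share was 12.6%. TGANTCA was present in 1 of the 21, in 6.23% of all tested genes with a window and in 6.75% of all windows. A match is a description of letters, not a bound site.

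Other target genes differed by more than the reporters. F3 was at 188, 232 and 187 CPM in YAP-5SA against 14.99, 13.2 and 15.2 in YAP-S127A (3.80, SE 0.15). Igfbp3, an IGF-binding protein, was at 615, 866 and 581 against 52.1, 55.1 and 64.4 (3.59, SE 0.20), and the EGF receptor ligand Areg at 61.7 ± 11.5 against 8.51 ± 0.3999. In the other direction, the collagen VIII gene Col8a1 was at 0.716, 1.42 and 1.17 CPM in YAP-5SA against 154, 151 and 174 in YAP-S127A (-7.16, SE 0.23). The RNA-binding protein gene Rbms3 was at 0.0987 ± 0.0213 against 26.8 ± 1.47, and thrombospondin 1 (Thbs1) at 49.97 ± 8.47 against 302 ± 18.4. The receptor kinase gene Axl had the highest mean CPM among called targets, at 703 ± 72.6 and 975 ± 59.5 (-0.47, SE 0.14, adjusted p = 0.0140), a call that was lost without YAP-S127A replicate 1 (adjusted p = 0.0665) or 2 (0.0649), and with all 11 libraries in the fit (0.0717).

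The list of Hippo pathway components, which also holds genes that act with YAP, such as Tead3, was called in both directions. Of 33 tested members, 10 were higher, 9 lower and 14 not called, a called share of 57.6% beside 65.8% of all genes. The kinase gene Stk3, encoding MST2, was higher (1.17, SE 0.14, at 32.1 ± 4.15 against 14.2 ± 1.93 CPM), and so was Wwc1, encoding the scaffold KIBRA, at 199 ± 25.5 against 56.1 ± 1.89. Sav1, the scaffold of the MST kinases, was lower at 65.5 ± 5.13 against 142 ± 5.37, and so was the kinase gene Map4k4 at 213 ± 29.2 against 445 ± 30.7. Lats1, Lats2, Nf2 and Mob1a, at the core of the pathway, were not called, with log2 fold changes of 0.10, -0.16, 0.03 and -0.29.

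**Figure D2:**
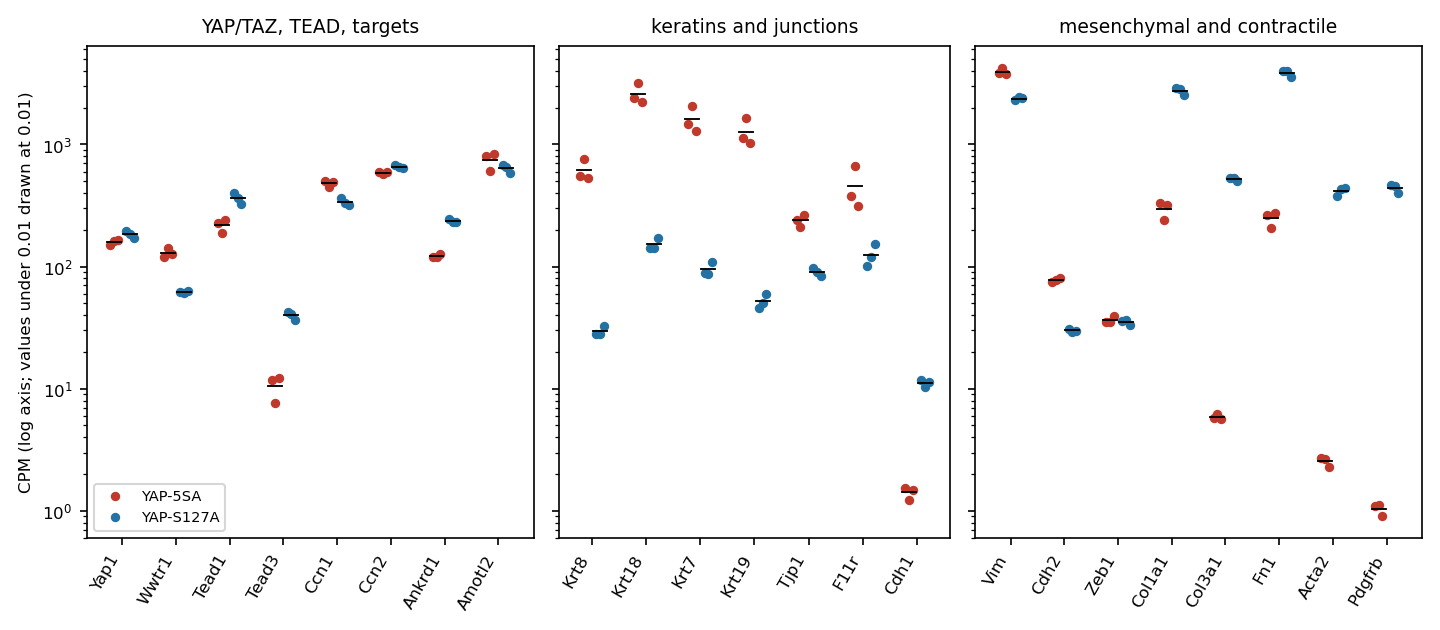
Points are the 3 libraries of each group, red for YAP-5SA and blue for YAP-S127A, and black bars are group means, with CPM on a log axis. The Yap1, Ccn2 and Amotl2 points of the groups lie close together, the keratin points of YAP-5SA lie more than 10-fold above those of YAP-S127A, and the Col3a1, Acta2 and Pdgfrb points lie far below.

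Keratins, the intermediate filament proteins of epithelia, were mostly higher in YAP-5SA. All 13 tested keratins of the list were called higher, with a median of 4.37. Over all 23 tested genes with keratin symbols, in the list or not, 20 were higher, 2 lower and 1 not called. The 2 lower ones, Krt12 (-1.50, SE 0.34, at 0.312 ± 0.134 against 0.884 ± 0.0969 CPM) and Krt10 (-0.41, SE 0.12, at 11.8 ± 1.19 against 15.6 ± 1.27), are outside the list and were named after their values were seen. The simple-epithelial pair was at 548, 766 and 530.0 CPM in YAP-5SA against 28.3, 28.2 and 32.8 in YAP-S127A for Krt8 (4.37, SE 0.19). Its partner Krt18 was at 2407, 3184 and 2229 against 143, 143 and 172 (4.09, SE 0.20). The bile duct keratins followed, Krt7 at 1480.2, 2077 and 1279.6 against 88.4, 87.1 and 109 and Krt19 at 1138, 1637 and 1029 against 46.1, 50.02 and 60.2. In all 4 the YAP-5SA libraries lay at least 10-fold above every YAP-S127A library, and replicate 2 was the highest of YAP-5SA. On the nRPKM scale Krt18 reached 1258 ± 233 in YAP-5SA and 73.6 ± 8.20 in YAP-S127A. Keratins of stratified epithelia appeared at lower levels. Krt6a, at 9.41, 13.6 and 7.91 CPM in YAP-5SA, had no count in YAP-S127A and was at least 411-fold higher, taking 3 counts over the group as the floor. Krt80 was at 149 ± 11.4 against 6.67 ± 0.801, Krt14 at 3.63 ± 0.221 against 0.161 ± 0.0824, and Krt4 at 12.5 ± 1.30 against 1 count over the YAP-S127A libraries. Type II keratins lie on chromosome 15, whose genes had a median of 0.60 in this comparison. With the members on chromosomes 4, 15 and 17 set aside, 6 of 6 keratins remained higher, with a median of 3.53. Chromosome 11, which holds Krt19, was kept, and its tested genes had a median of 0.32. Reads can be shared between these similar genes.

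Junction genes of epithelia were mostly higher too, but the defining cadherin was not. Of 26 tested members, 16 were higher, 3 lower and 7 not called, with a median of 1.35. The tight junction adaptor Tjp1 was at 242, 209 and 264 CPM against 96.7, 89.6 and 84.0 (1.40, SE 0.14), and the junctional adhesion molecule F11r at 453 ± 189 against 125 ± 26.5. Cingulin (Cgn), plakoglobin (Jup), the protease inhibitor Spint2 and the splicing factor Esrp2 were higher by 1.47 to 2.31. Claudin 3 (Cldn3) was at 8.67, 11.04 and 7.02 CPM in YAP-5SA and had 1 count in YAP-S127A. Cdh1, encoding E-cadherin, went the other way, at 1.53, 1.22 and 1.48 CPM in YAP-5SA against 11.9, 10.3 and 11.4 in YAP-S127A (-2.98, SE 0.15). Claudin 2 (Cldn2) was lower as well, at 0.902 ± 0.0587 against 31.4 ± 0.766. Epcam was not tested, with 10 and 15 counts over the libraries of each group.

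Genes of mesenchymal cells were mostly lower in YAP-5SA. Of 19 tested transcription and cytoskeletal genes of this kind, 2 were higher, 15 lower and 2 not called, with a median of -2.70. Snai2, a repressor of epithelial genes, was at 1.63, 1.85 and 1.64 CPM against 30.3, 29.1 and 33.1 (-4.17, SE 0.13), and Snai1 at 3.80 ± 0.273 against 28.7 ± 2.07. The homeobox gene Prrx1 was at 10.6 ± 2.34 against 259.9 ± 11.1, cadherin 11 (Cdh11) at 1.38 ± 0.555 against 95.8 ± 18.5, and Zeb2 at 21.6 ± 2.15 against 93.7 ± 4.80. The list did not move as a whole. Vimentin (Vim), its most abundant called member, was higher at 3826, 4238 and 3798 CPM against 2294, 2438 and 2397 (0.73, SE 0.14), and N-cadherin (Cdh2) was higher at 77.9 ± 2.89 against 30.0 ± 0.950. Zeb1 and S100a4 were not called, at 0.04 and 0.13.

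Collagen genes were lower in YAP-5SA in 20 of 22 tested members, with a median of -3.28. Col1a1, a chain of type I collagen, was at 332, 239 and 322 CPM in YAP-5SA against 2881, 2835 and 2537 in YAP-S127A (-3.21, SE 0.18). Its partner chain Col1a2 was at 13.6, 16.6 and 14.7 against 2221, 2170.4 and 1970.0 (-7.15, SE 0.19). The 2 chains of 1 protein thus differed to unequal degrees: on the nRPKM scale Col1a1 was at 55.8 ± 9.99 and Col1a2 at 2.57 ± 0.241 in YAP-5SA, against 514 ± 34.7 and 363 ± 22.4 in YAP-S127A. Type III collagen (Col3a1) was at 5.78, 6.25 and 5.60 CPM against 529, 536 and 498, and Col15a1 at 0.162 ± 0.0456 against 108 ± 14.1. The basement membrane chains Col4a1 and Col4a2 differed less (-1.21, SE 0.16, and -1.12, SE 0.15). Col18a1, which gives rise to endostatin, was the member called higher (1.22, SE 0.14), and Col4a5 was not called at 0.04. Over all 30 tested genes with collagen symbols, in the list or not, 25 were lower, 4 higher and 1 not called, with a median of -2.86. The 3 higher ones outside the list, named after their values were seen, were Col22a1 (4.32, SE 0.68, at 0.560 ± 0.0683 against 0.0256 ± 0.0443 CPM), Col20a1 (1.77, SE 0.19, at 54.6 ± 14.6 against 15.96 ± 1.42) and Col2a1 (1.01, SE 0.31, at 1.38 ± 0.482 against 0.673 ± 0.112).

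Matrix glycoproteins and the enzymes that crosslink them were lower in 22 of 29 tested members, higher in 4 and not called in 3, with a median of -2.60. Fibronectin (Fn1) was at 263, 209 and 272 CPM in YAP-5SA against 4016, 3966 and 3554 in YAP-S127A (-3.96, SE 0.17). The proteoglycan biglycan (Bgn) was at 0.840, 0.757 and 0.620 against 1049, 1082 and 939 (-10.43, SE 0.22), and thrombospondin 2 (Thbs2) at 0.316 ± 0.101 against 144 ± 6.31. Lysyl oxidase (Lox) was at 3.399 ± 0.249 against 139 ± 5.17, while its relative Loxl4 was higher, at 137 ± 5.49 against 27.6 ± 1.39. The fibulin family divided: Fbln5 was at 0.0602 ± 0.0837 against 39.9 ± 1.91, whereas Efemp1 was at 566 ± 129.6 against 84.8 ± 5.32. Smooth muscle contractile genes were lower in 10 of 13 tested members and higher in none, with a median of -1.32. Transgelin (Tagln) was at 2.08, 1.54 and 2.90 CPM in YAP-5SA against 959.8, 1146 and 1425 in YAP-S127A (-9.08, SE 0.31), and smooth muscle actin (Acta2) at 2.72, 2.67 and 2.30 against 379.9, 432 and 441. Their regulator Srf was lower (-1.48, SE 0.12), but the coactivator genes Mrtfa and Mrtfb were not called, at -0.12 and -0.25.

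**Figure D3:**
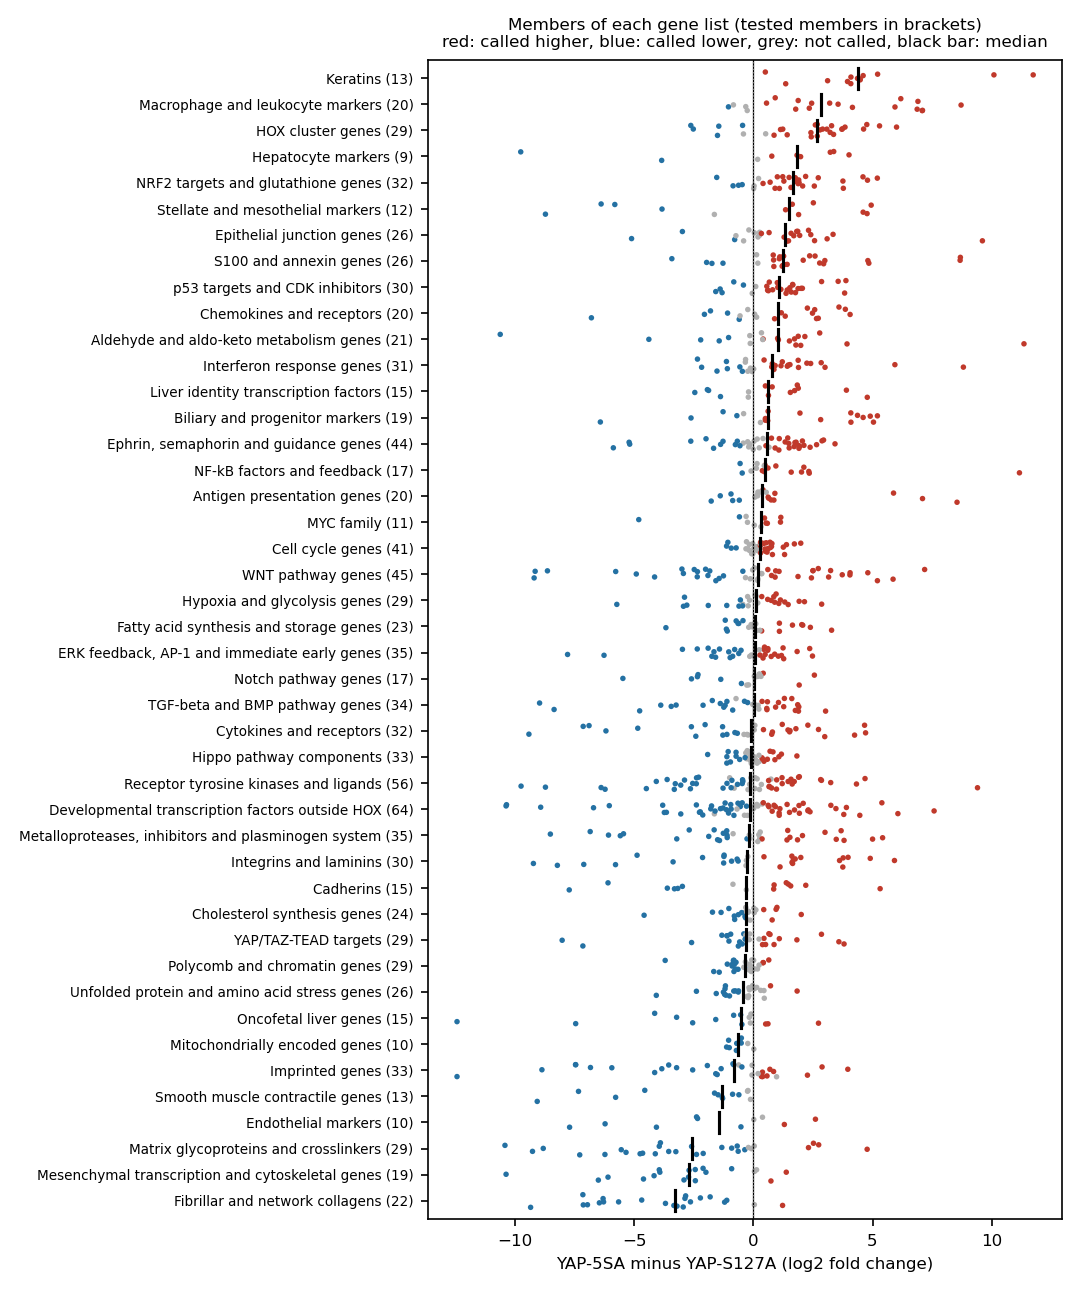
Each line is a gene list with at least 9 tested members, ordered by its median (black bar), and each point is a member's log2 fold change, YAP-5SA minus YAP-S127A. Keratins lie at the top with a median of 4.37 and collagens at the bottom with -3.28, while the lists of WNT, ERK, TGF-beta and receptor kinase genes have medians near 0 with members called in both directions.

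Markers of cell types show what the libraries could hold. Mature hepatocyte transcripts were nearly absent from both groups: of 30 markers, 21 were too low to test, among them Serpina1a, Cyp3a11, G6pc and Pck1 with no count in any library, and albumin (Alb) was at 0.0625 ± 0.0384 CPM in YAP-5SA against 0.920 ± 0.296 in YAP-S127A. The defining transcripts of the labelled tissue's main cell type were thus at or near 0. Of the 9 tested, 6 were higher, 2 lower and 1 not called. Under a stricter filter, which asks for 1 CPM or more in 3 of the 6 libraries and a mean level of 1 or more in log2 CPM, low genes were not tested and these counts became 3 and 0. Apob, the protein of very low density lipoprotein, was the exception in level, at 689, 626 and 695 CPM in YAP-5SA against 77.5, 70.6 and 66.9 in YAP-S127A (3.23, SE 0.14). Afp, the fetal liver protein, was at 35.2, 39.7 and 30.4 against 33.7, 36.8 and 42.8 and was not called. Of the liver transcription factors, 9 of 15 tested were higher and 4 lower (2 lower under the stricter filter). Gata4 (16.4 ± 1.25 against 1.09 ± 0.0360 CPM), Hhex, Foxa2 and Nr1h4 were higher, Cebpa lower, and Hnf4a (6.61 ± 0.431 against 7.70 ± 0.813) and Foxa1 were not called.

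Biliary and progenitor markers were higher in 13 of 19 tested members and lower in 4, and the list shares keratins with those above. Besides them, the adhesion protein Cd24a was at 396, 509.7 and 411 CPM against 59.6, 57.2 and 69.5, and integrin beta 4 (Itgb4), a part of hemidesmosomes, at 533, 363 and 522 against 17.1, 14.8 and 15.4 (4.90, SE 0.20). Sox9, the transcription factor of bile ducts, was lower at 7.35 ± 1.37 against 17.8 ± 0.525 (-1.28, SE 0.15), osteopontin (Spp1) was lower at 187 ± 46.6 against 304 ± 36.7, and the water channel Aqp1 was lower at 0.397 ± 0.0261 against 34.6 ± 2.06.

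Mesothelial and stellate cell markers, held in 1 list of 22, were called in both directions. Of 12 tested members 7 were higher, 4 lower and 1 not called, and 10 were too low to test. Desmin (Des), a stellate cell marker, was not tested, with 42 counts over the YAP-5SA libraries and 15 over those of YAP-S127A. The mesothelial genes mesothelin (Msln, 1709, 1857 and 1725 CPM against 705, 674 and 698), Wt1, Upk1b (109.9 ± 26.7 against 4.05 ± 0.786) and Upk3b were higher. The stellate cell and fibroblast receptors were lower, Pdgfrb at 1.09, 1.11 and 0.908 against 463, 460.1 and 403 (-8.73, SE 0.19) and Pdgfra at 1.13 ± 0.123 against 95.5 ± 5.13. These receptors moved with the collagen and matrix genes and the mesothelial genes with the keratins, and the part of such cells in those groups was not tested. The summed level of the 22 listed markers was 3226 to 3961 CPM in YAP-5SA and 1532 to 1548 in YAP-S127A. Endothelial markers were lower in 6 of 10 tested members and higher in 2, and 10 of the 20 listed were too low to test. Their sums were 50.7 to 59.3 against 245 to 273 CPM. Endoglin (Eng) and Flt1 made up most of the YAP-S127A sum, and the defining markers Pecam1 and Kdr had group means of at most 1.17 CPM. Another, Cdh5, was not tested, with 15 counts over the YAP-5SA libraries and 1 over those of YAP-S127A. The count of 2 dropped to 1 when either of YAP-5SA replicates 1 and 2 or YAP-S127A replicates 2 and 3 was left out, under the stricter filter, with DESeq2, and with all 11 libraries in the fit.

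Macrophage and leukocyte markers were higher in YAP-5SA in 16 of 20 tested members, at low levels, and 5 were called higher under the stricter filter. Their summed level was 98.0 to 116 CPM in YAP-5SA and 24.97 to 28.5 in YAP-S127A. The receptor Csf1r was at 27.6, 22.8 and 27.8 CPM against 7.32, 7.32 and 6.62, lysozyme (Lyz2) at 13.5, 19.4 and 11.3 against 1.14, 0.949 and 1.66, and Cd74, the invariant chain, at 7.71, 10.2 and 7.38 against 0.0631, 0.0612 and 0.0511. The complement genes C1qa, C1qb and C1qc were at 1.26 to 2.31 CPM in YAP-5SA and at most 0.0170 in YAP-S127A, and Adgre1 had 25 counts over the YAP-5SA libraries and 0 in YAP-S127A. Ptprc, the pan-leukocyte marker, was not called, at 0.167 ± 0.0506 against 0.307 ± 0.0522 CPM. The 1 member called lower, Cx3cr1, lost its call without YAP-5SA replicate 2 or 3 or YAP-S127A replicate 2 or 3. The part of such cells in the immune gene groups below was not tested.

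HOX genes, which give cells their position along the body axis, differed by cluster. Of 29 tested, 22 were higher in YAP-5SA, 5 lower and 2 not called, with a median of 2.68. Under the stricter filter 1 was called lower. All 9 tested Hoxb genes and all 9 tested Hoxc genes were higher, with cluster medians of 3.22 and 3.28. Hoxb9 was at 76.6, 71.0 and 82.9 CPM in YAP-5SA against 5.47, 5.14 and 5.42 in YAP-S127A (3.84, SE 0.12), and Hoxc6 at 154, 121 and 173 against 29.3, 24.6 and 20.2 (2.60, SE 0.18). The last genes of each cluster, Hoxb13 and Hoxc13, had the largest differences, at 21.5 ± 1.96 against 0.542 ± 0.0494 and 22.5 ± 2.58 against 0.358 ± 0.116. The 3 tested Hoxd genes were lower, with group means of at most 2.44 CPM. The Hoxa cluster was mixed, with 4 of 8 higher, 2 lower and Hoxa3 and Hoxa5 not called. Hoxa2 was at 0.565 ± 0.316 against 1.59 ± 0.343 (-1.51, SE 0.39). Hoxc lies on chromosome 15 (median 0.60 over its tested genes) and Hoxb on chromosome 11 (median 0.32), and the difference of each Hoxb and Hoxc gene was at least 2.41. Whether counting used strand is not given in the sources used here, so antisense neighbours may add to these counts, and similar copies can share reads.

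Developmental transcription factors outside the HOX clusters were called in both directions. Of 64 tested, 26 were higher, 28 lower and 10 not called, with a median of -0.14. The lower ones included Tbx18 at 0.0222 ± 0.0384 CPM against 34.8 ± 1.08, Tbx1 at 0.0304 ± 0.0121 against 44.4 ± 2.53, Eya4 at 0.0313 ± 0.0272 against 16.5 ± 1.63 and Foxf1 at 0.146 ± 0.0317 against 15.6 ± 0.122. The higher ones included Pax6, a factor of eye and pancreas (14.1 ± 0.545 against 0.637 ± 0.0459), Irx5 (6.79 ± 0.944 against 0.153 ± 0.0855), Tbx15 (21.5 ± 3.08 against 4.39 ± 0.405) and Klf5 (32.2 ± 1.36 against 6.21 ± 0.259). Pax2, a kidney and duct factor, was not called, at 109 ± 25.2 against 95.7 ± 8.24. Of the Polycomb and chromatin genes, 3 of 29 tested were higher, 14 lower and 12 not called. The DNA demethylase Tet1 was at 0.155 ± 0.0800 against 2.03 ± 0.606 and the cofactor Jarid2 at 10.1 ± 1.91 against 31.9 ± 2.38, while Ezh2, Eed and Suz12, the core of the repressive complex, were not called.

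Imprinted genes, expressed from the copy of a single parent, were lower in 18 of 33 tested members and higher in 10, with a median of -0.83. The count of 10 was 6 without YAP-S127A replicate 2. The maternally expressed RNA Meg3 was at 0, 0 and 0.0443 CPM in YAP-5SA against 108, 105 and 93.4 in YAP-S127A, with 2 counts against 12233. Its neighbour Rian was at 0.219 ± 0.196 against 39.7 ± 3.86, Peg10 at 0.0872 ± 0.0742 against 15.5 ± 1.66, and Peg3, a zinc-finger gene, at 45.8, 35.9 and 50.05 against 439, 417 and 378 (-3.23, SE 0.17). Phlda2 (5.38 ± 1.81 against 0.715 ± 0.221) and Ascl2 (2.65 ± 0.182 against 0.167 ± 0.0339) were higher. The oncofetal list, which shares several of these, had 3 of 15 higher and 9 lower. Its RNA-binding protein Igf2bp1 was higher at 195 ± 28.3 against 128 ± 10.99, and Hmga2 was not called at 171 ± 7.04 against 193 ± 12.4. Xist, the RNA that silences an X chromosome, was at 3601 ± 941 CPM in YAP-5SA against 5210.2 ± 775 in YAP-S127A. Its call as lower (adjusted p = 0.0491) was lost when YAP-5SA replicate 1 (0.0805) or 2 (0.0556), or YAP-S127A replicate 1 (0.183), 2 (0.0911) or 3 (0.0556), was left out. In edgeR the Xist call was also lost with RLE scaling (0.0503), a dispersion that was not robust (0.0590) and all 11 libraries in the fit (0.218). No library had a count of the Y-linked genes Ddx3y, Eif2s3y, Kdm5d or Uty.

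Targets of p53, the tumour suppressor that halts damaged cells, were mostly higher in YAP-5SA. Of 30 tested p53 targets and inhibitors of cyclin-dependent kinases, 23 were higher, 5 lower and 2 not called, with a median of 1.09. Mdm2, which feeds back on p53, was at 966, 1464 and 944 CPM in YAP-5SA against 154, 147 and 164 in YAP-S127A (2.86, SE 0.20). Cyclin G1 (Ccng1) was at 1268, 1901 and 1141 against 342, 382 and 453, and the kinase inhibitor p21 (Cdkn1a) at 251, 243 and 260.1 against 80.1, 83.4 and 76.5 (1.65, SE 0.12). The death genes Fas (129.6 ± 42.7 against 8.79 ± 0.897), Pmaip1 (103 ± 11.3 against 8.74 ± 1.03) and Perp (409.6 ± 143 against 28.8 ± 5.56) had the largest differences. In none of these 6 genes did the groups overlap, as was the case for 70.9% of all genes tested. Trp53 itself was higher by 0.66 (SE 0.12), and Cdkn2a, encoding p16 and p19ARF, by 1.37 (SE 0.23). The inhibitor Cdkn1b was lower, at 50.1 ± 1.82 against 125 ± 9.12, and Bbc3 and Sesn1 were not called.

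Cell cycle genes were higher in 20 of 41 tested members, lower in 4 and not called in 17, with a median of 0.29. Cyclin D1 (Ccnd1) had the largest difference, at 1864, 1752 and 1964 CPM against 491, 484 and 433 (1.99, SE 0.14), followed by the nucleotide reductase Rrm2 (310.0 ± 51.4 against 94.2 ± 7.07) and Cdk6 (202 ± 35.0 against 77.3 ± 9.73). The replication helicase genes Mcm2, Mcm3, Mcm4, Mcm5 and Mcm7 were higher by 0.29 to 0.80, and Mcm6 was not called (0.30). The proliferation marker Mki67 was not called, at 155, 134 and 166 against 196, 189 and 172, and Foxm1, Cenpa, E2f8 and Ccne2 were lower, at -1.13 to -0.73. With the least correlated libraries left out, the 4 called lower became 8. In the MYC family 5 of 11 were higher and 2 lower, with Myc at 149.7 ± 15.7 against 104 ± 3.43 (0.53, SE 0.12). The count of 5 was 3 without YAP-5SA replicate 1 or YAP-S127A replicate 1 or 2, and with all 11 libraries in the fit, where the count of 2 was 1, as it was under the stricter filter.

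Glutathione and NADPH-generating enzymes, many of them targets of the oxidant sensor NRF2, were higher in YAP-5SA. Of 32 tested members, 25 were higher, 4 lower and 3 not called, with a median of 1.67. The count of 4 was 2 without YAP-5SA replicate 1 or YAP-S127A replicate 2 or 3, and 1 with all 11 libraries in the fit. Glutathione reductase (Gsr) was at 182, 195 and 204 CPM against 33.7, 30.1 and 34.9 (2.56, SE 0.13), and the modifier subunit of glutathione synthesis (Gclm) at 103 ± 10.1 against 22.5 ± 1.37. The quinone reductase Nqo1 was at 26.1, 44.8 and 23.9 against 0.862, 0.949 and 0.767 (5.20, SE 0.28), Osgin1 at 400.3 ± 59.8 against 29.6 ± 1.89, the transferase Gsta4 at 499 ± 96.8 against 75.6 ± 8.74, and ferritin heavy chain (Fth1) at 2232 ± 297 against 533 ± 49.0. Nfe2l2, which encodes NRF2, was higher by 1.58 (SE 0.12), and its repressor gene Keap1 was not called at 0.21. The cystine transporter Slc7a11, also a target, was lower (-0.63, SE 0.12). Among aldehyde and aldo-keto enzymes, 12 of 21 tested were higher and 5 lower (3 lower under the stricter filter). Aldh3a1, an aldehyde dehydrogenase of cornea and stomach, was at 1347, 2058 and 1274 CPM in YAP-5SA against 0.399, 0.520 and 0.870 in YAP-S127A. Aldh1a1 was at 374 ± 153 against 54.3 ± 8.71, while the retinoic acid enzyme Aldh1a2, at 4.76 ± 0.178 in YAP-S127A, had no count in YAP-5SA, and the mitochondrial folate enzyme Aldh1l2 was at 6.36 ± 0.451 against 134 ± 4.64.

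Lipid genes did not share a direction. In cholesterol synthesis and uptake 5 of 24 tested were higher, 10 lower and 9 not called, with Insig1, a sterol sensor of this pathway, at 26.0 ± 4.001 CPM against 85.7 ± 5.12, and Ebp higher at 107 ± 25.8 against 26.5 ± 3.05. In fatty acid synthesis and storage 8 of 23 were higher and 8 lower. The storage droplet protein Plin2 and the acyltransferase Gpam were higher (2.03, SE 0.18, and 3.28, SE 0.16), the desaturase Scd1 lower (-1.14, SE 0.12), and Fasn was not called at 0.06.

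Of 29 tested glycolysis and hypoxia genes, 13 were higher, 9 lower and 7 not called. Lower members included the glucose transporter Slc2a3, at 0.369 ± 0.258 CPM in YAP-5SA against 19.8 ± 2.57, lactate exporter Slc16a3 at 4.83 ± 0.594 against 37.1 ± 1.58, and Vegfa, the endothelial growth factor, at 46.2, 36.9 and 50.8 against 358, 335 and 302 (-2.90, SE 0.16). Ndrg1 (58.0 ± 1.54 against 7.97 ± 0.565), Hk1, Pgk1 and Tpi1 were higher, and Slc2a1 was not called. Of 26 genes of the unfolded protein and amino acid stress responses, 2 were higher, 13 lower and 11 not called. The serine enzyme Psat1 was at 226, 425 and 193 CPM against 561, 621 and 841 (-1.26, SE 0.29), asparagine synthetase (Asns) at 73.5 ± 12.7 against 166 ± 7.61, and Trib3 at 17.01 ± 0.975 against 89.5 ± 3.15. The chaperone Hspa5 was at 813, 1834 and 668 in YAP-5SA and 1030.2, 1148 and 1602 in YAP-S127A, so its groups overlapped, and Hsp90b1, Pdia4 and Dnajb9, other chaperones of the endoplasmic reticulum, were not called either. The summed level of the list was 3195, 5178 and 2931 CPM in YAP-5SA and 4503 to 5650 in YAP-S127A. The 2 called higher became 4 without YAP-5SA replicate 3. Of the 10 tested mitochondrially encoded genes 8 were lower, a count that was 5 without YAP-S127A replicate 2, with summed levels of 25228, 17462 and 24999 CPM against 34135 to 35538. The cytochrome b gene CYTB lost its call without any of the YAP-S127A replicates (adjusted p of 0.0737, 0.0891 and 0.0515), and COX1 without replicate 2 of that group (0.0602).

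Secreted signals of inflammation differed gene by gene. Of 32 tested cytokines and cytokine receptors, 14 were higher in YAP-5SA, 13 lower and 5 not called. Interleukin 6 (Il6) was at 0.321, 0.223 and 0.244 CPM against 20.8, 18.2 and 18.8 and its relative Il11 at 0.618, 0.801 and 0.820 against 102, 99.8 and 118 (-7.15, SE 0.17). The shared receptor Il6st and Osmr were lower, while Lif (87.4 ± 16.95 against 32.0 ± 2.16), the related cytokine Clcf1 (183 ± 36.6 against 64.0 ± 5.83) and Lifr were higher. Epithelial alarmins parted: Il33 was at 109, 159 and 110.2 against 14.4, 15.1 and 18.1 (2.99, SE 0.18) and Il18 at 72.7 ± 8.18 against 10.9 ± 0.332, whereas Tslp was at 0.0519 ± 0.0560 against 6.76 ± 0.252, and Il1rl1, the IL-33 receptor, was lower at 6.68 ± 1.75 against 194 ± 24.1. Csf1, the macrophage growth factor, was at 839.7 ± 136 against 1441 ± 99.1. Of 20 tested chemokines and receptors 11 were higher and 5 lower. Under the stricter filter these counts were 7 and 3, and with no filter 17 were called higher. Cxcl16 was at 48.9 ± 12.2 against 2.94 ± 0.660, Ccl9 at 243 ± 39.1 against 36.9 ± 2.64, Ccl2 at 238 ± 48.0 against 94.3 ± 16.3 and Cxcl1 at 52.3 ± 7.44 against 9.36 ± 0.790, while the stromal chemokine Cxcl12 was at 0.741, 1.31 and 0.908 against 112, 112 and 109.6 (-6.80, SE 0.19).

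Feedback genes of NF-kB, the transcription factor of inflammation, were higher in YAP-5SA. Of 17 members 11 were higher, 2 lower and 4 not called, and the count of 2 was 1 without YAP-5SA replicate 1 or YAP-S127A replicate 1 or 2, and with all 11 libraries in the fit. The inhibitor Nfkbia was at 61.4, 62.9 and 58.4 CPM against 12.8, 11.1 and 12.5 (2.32, SE 0.11), the deubiquitinase gene Tnfaip3 at 146, 122 and 148 against 35.9, 37.0 and 30.0, and Tnip3 at 26.2 ± 5.71 against 1 count in YAP-S127A. Nfkb1 and Nfkbiz were the lower members. Interferon response genes were higher in 18 of 31 tested members (10 under the stricter filter) and lower in 7. Irgm1 was at 103 ± 3.86 against 46.4 ± 2.98, Gbp2 at 7.64 ± 1.75 against 1.05 ± 0.197, and Mx1, at 1.35 ± 0.0752, had no count in YAP-S127A. Isg15 (3.35 ± 0.882 against 17.1 ± 2.78) and Oasl2 were lower. In antigen presentation 9 of 20 were higher and 5 lower. The class II genes H2-Aa and H2-Ab1 were at 1.12 and 2.63 CPM in YAP-5SA and at most 0.0398 in YAP-S127A, the class I gene H2-K1 was lower at 16.9 ± 2.18 against 44.5 ± 1.71, and B2m and H2-D1 were not called.

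Different growth factor receptors were abundant in the 2 groups. Of 56 tested receptor tyrosine kinases and ligands, 20 were higher in YAP-5SA, 24 lower and 12 not called. Receptors of mesenchymal cells were lower: the collagen receptor Ddr2 was at 1.16, 1.29 and 1.04 CPM against 1021, 1061 and 949 (-9.76, SE 0.20) and Fgfr1 at 18.2 ± 1.80 against 182 ± 13.01. The epidermal growth factor receptor (Egfr) was higher, at 249.6, 223 and 265 against 80.5, 82.0 and 76.5 (1.63, SE 0.13), and so were its ligands Areg, Hbegf (276 ± 5.79 against 140.2 ± 3.16), Ereg, Btc and Tgfa. Its other listed ligands, Egf and Epgn, were not called, and its partner receptor Erbb2 was lower (-0.45, SE 0.13). Met, the receptor of hepatocyte growth factor, was higher (0.76, SE 0.11), and Fgf5, at 13.4 ± 2.18, had 2 counts in YAP-S127A. Of 6 tested IGF-binding proteins, Igfbp3 and Igfbp4 (646 ± 12.02 against 74.3 ± 2.76) were higher, and Igfbp2, Igfbp6 and Igfbp7 (24.4 ± 5.16 against 249 ± 17.8) were lower.

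Members of the TGF-beta and BMP pathway were higher in 14 and lower in 15 of 34 tested. The secreted follistatin-like protein Fstl1 was at 1.09, 1.54 and 0.642 CPM against 469, 529 and 655 (-8.98, SE 0.32), and activin (Inhba) at 6.78 ± 1.22 against 101 ± 4.33. The BMP target Id1 was higher, at 437, 469 and 349.6 against 46.6, 51.7 and 55.6 (3.03, SE 0.16), as were Tgfbr2 and Smad6. WNT pathway genes were higher in 19 and lower in 18 of 45 (9 lower under the stricter filter). WNT ligands Wnt10a (115 ± 5.66 against 1.96 ± 0.282), Wnt7b (105 ± 7.60 against 7.90 ± 1.38), Wnt9a (104 ± 4.43 against 6.27 ± 0.338) and Wnt4 were higher, together with Rnf43 and Lgr6. The secreted antagonists Dkk2 (0.119 ± 0.115 against 69.98 ± 1.53) and Dkk3 (0.204 ± 0.131 against 84.1 ± 7.78) were lower, and the target gene Axin2 was not called at 0.33. Of 17 Notch pathway genes 3 were higher, 6 lower and 8 not called, and without YAP-5SA replicate 2 the count of 3 became 7, and under the stricter filter 1. Jag1 was lower (20.9 ± 3.44 against 105 ± 6.03) and Jag2 higher (44.8 ± 8.91 against 11.8 ± 1.37).

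Early response genes of the ERK cascade were higher in 16 and lower in 15 of 35. Egr1 was at 6.87 ± 1.71 CPM against 54.2 ± 2.99 and Jun at 12.5 ± 2.86 against 37.6 ± 3.35, both lower, whereas Dusp6 (317 ± 27.3 against 134 ± 5.62), Fosl2 (136 ± 22.4 against 66.1 ± 6.78), Junb and Jund were higher. Fos was not called. The AP-1 genes, which act with TEADs at many sites, thus differed by member.

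Of 30 tested integrins and laminins, 14 were higher, 13 lower and 3 not called. The laminin chains Lama3 and Lamb3 (87.6 ± 7.64 against 5.57 ± 0.171 CPM) were higher, as were the laminin receptor chains Itga3 (683 ± 102 against 218 ± 12.6), Itga6 and Itgb4, and the epithelial integrin Itgb6 (85.8 ± 4.57 against 6.30 ± 0.414). The collagen receptor chains Itga11 (0.113 ± 0.138 against 33.3 ± 3.60) and Itga1 and the fibronectin receptor chain Itga5 were lower. Of 15 tested cadherins 7 were higher and 6 lower. P-cadherin (Cdh3) was higher at 10.4 ± 2.30 against 2.27 ± 0.271, and Pcdh19 was lower at 0.444 ± 0.0656 against 95.3 ± 2.30. Ephrin, semaphorin and guidance genes were higher in 22 and lower in 11 of 44 (7 lower under the stricter filter), with Sema3c at 654, 1159.7 and 629.9 against 114, 120.1 and 155 (2.65, SE 0.26) and Slit2 at 0.844 ± 0.0788 against 49.9 ± 4.62.

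Proteases and their inhibitors were higher in 12 and lower in 16 of 35. Collagenase 3 (Mmp13) was at 20.9 ± 9.57 CPM against 0.659 ± 0.121 and the urokinase receptor Plaur at 257 ± 14.1 against 96.9 ± 2.11. Adam19 was lower at 4.41 ± 0.884 against 212 ± 15.5, as was the inhibitor Timp3 at 514 ± 18.5 against 1118 ± 31.7. S100 and annexin genes, which encode calcium-binding proteins, were higher in 20 of 26 members and lower in 4 (1 lower under the stricter filter). S100a6 was at 19818, 23563 and 16577 CPM against 8428, 9445 and 10360.0 (1.09, SE 0.18), a call that was lost with all 11 libraries in the fit (adjusted p = 0.0922 in edgeR). Anxa8 was at 551 ± 191 against 19.7 ± 3.25 and Anxa10 at 241, 417 and 185 against 0.631, 0.429 and 0.972. The YAP-5SA libraries differed among themselves in Anxa10, with replicate 2 the highest.

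The genes with the largest differences were present in 1 group and nearly absent from the other. The ranking took only called genes that did not overlap between the groups, had an average level of 2 or more in log2 CPM, and carried a full gene name in place of a clone or predicted-gene symbol. Of the 10 largest increases so ranked, Krt76 had 12215 counts in YAP-5SA and 2 in YAP-S127A, a ratio of 5583 (95% interval 1545 to 46100). Opn4, encoding the photopigment melanopsin, had no count in YAP-S127A and was at least 400.1-fold higher, and Krt6a is given with the keratins. Tnip3, Dmkn, Fam3b, Krt4, the homeobox gene Six6 and Cldn3 had 1 or 2 counts in YAP-S127A and 1164 to 3427 in YAP-5SA. Aldh3a1 completes this set, with 204491 counts against 70. Of the 10 largest decreases so ranked, Piezo2, a mechanically gated ion channel, was at 0.0741, 0.0445 and 0 CPM in YAP-5SA against 225, 211 and 192 in YAP-S127A. Clca3a1 was at 0.144 ± 0.0405 against 546 ± 27.5, and the transcriptional repressor gene Prdm1 had 3 counts against 11961. Uts2b, Il1rl2, Mnx1 and Bnc2 had no count in YAP-5SA and were at least 1522-, 946-, 833- and 404-fold lower. Airn, which overlaps Igf2r in the annotation and is therefore uncertain, had none either, Sh2d6 had 1 count against 5765, and Meg3 is given above. Over all tested genes, 94 had no count in YAP-5SA and 54 had none in YAP-S127A. These bounds and intervals cover counting error only.

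By the size of the difference in CPM, which is not adjusted for length, S100a6, Tm4sf1 (6252 ± 2019 against 1108 ± 216), Krt18, S100a10 (4920.3 ± 404 against 2768 ± 54.8), Anxa3 (3066 ± 944 against 1329 ± 162) and Fth1 gained most. Col1a1, COX1, CYTB, the ribosomal protein genes Rps3 (4038 ± 505 against 7164 ± 325) and Rpl13a (3375 ± 385 against 6998 ± 466), and Fn1 were the 6 largest losses. With all 11 libraries in the fit, 6 of these 12 genes lost their call: S100a6 (given above), S100a10 (adjusted p = 0.110 in edgeR), COX1 (0.158), CYTB (0.206), Rps3 (0.132) and Rpl13a (0.0826). Both ribosomal protein genes overlap small nucleolar RNA genes. Other named genes whose annotated span overlaps that of another counted gene, and whose counts are uncertain to that extent, include Ccn2, Rbms3, Sav1, Cldn3, Itgb4, Krt80, Col15a1, Tagln, Pdgfra, Eng, Cd74, Meg3, Rian, Peg3, Ccnd1, Cdk6, Mcm7, Osgin1, Aldh1a1, Gpam, Slc16a3, Il11, Cxcl16, Tslp, Ddr2, Igfbp7, Wnt10a, Wnt7b, Dusp6, Itgb6, Pcdh19, Timp3, Anxa8, Xist and Piezo2.

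Some chromosomes differed as a whole. The 967 tested genes of chromosome 4 had a median of -0.55, with 563 lower and 165 higher. Only 10-Mb windows with at least 20 tested genes were examined, and all 14 such windows of chromosome 4 had a median below 0. On chromosome 17 the median was -0.71 over 798 genes, with 492 lower and 107 higher and all 9 such windows below 0. Chromosome 15 lay the other way, at 0.60 over 682 genes, with 389 higher and 97 lower and 8 of 9 such windows above 0. Smaller shifts of whole chromosomes were seen as well. All 13 such windows of chromosome 11, all 9 of chromosome 14 and all 6 of chromosome 19 lay above 0. The medians of these chromosomes were 0.32, 0.20 and 0.25. With the list members on chromosomes 4, 15 and 17 set aside, HOX genes were higher in 13 and lower in 5 of 20, and collagens lower in 18 of 20. Targets of p53 were then higher in 17 of 21 and NRF2 targets in 24 of 30. Of antigen presentation genes only 8 lie elsewhere, of which 4 were higher and 2 lower. Copy number was not measured.

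**Figure D4:**
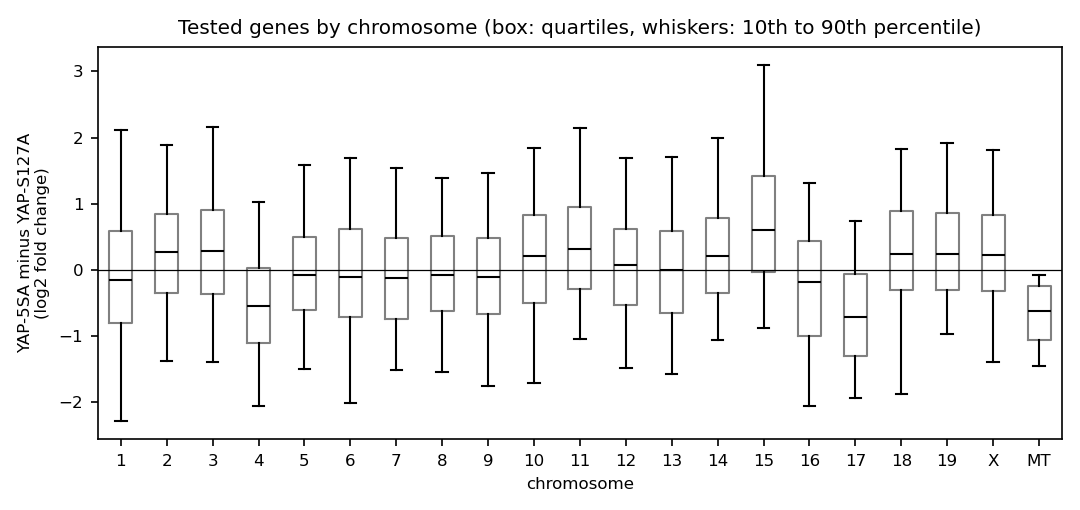
Boxes give the median and quartiles, and whiskers the 10th to 90th percentile, of the log2 fold change, YAP-5SA minus YAP-S127A, of the tested genes on each chromosome. The boxes of chromosomes 4 and 17 lie lowest among the autosomes, with medians of -0.55 and -0.71, and that of chromosome 15 lies highest at 0.60.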

How the data were processed

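RNA of 11 libraries from mouse liver tumour cell lines was sequenced. The authors deposited raw read counts per Entrez gene, and beside them nRPKM, an RPKM per gene length that the authors adjusted by a size factor, per the file headers. GSNAP and GRCm38 are named in the submitters' processing notes. The sources used here do not give the annotation, filters or strand setting. Symbols and positions came from RefSeq GRCm38.p6: 31049 of 36528 identifiers matched, and those unmatched held 2.99% of counts.

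The 6 YAP libraries were fitted in R 4.3.3 with edgeR 4.0.16 (quasi-likelihood test, robust, TMM scaling), after its filter on low counts removed 19010 identifiers. A gene whose Benjamini-Hochberg adjusted p was under 0.05 was called. The SE is the absolute log2 fold change divided by the square root of F. CPM used TMM-scaled totals, and nRPKM served only to compare levels between genes. In counts simulated for this comparison, 200 genes were changed and 17224 genes were tested. Of those changed by 0.5, 1, 2 and 3 on the log2 scale, 22.0%, 73.5%, 100% and 100% were recovered. There were 7 calls among 17026 unchanged genes. In the real counts 65.8% of genes were called, so these shares may not hold for them.

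The lists, and the rule for genes named from each (the 4 called members with the largest differences and the most abundant called member, beside 12 YAP pathway genes and the largest changes among called genes with no overlap between the groups, an average log2 CPM of at least 2 and no clone or predicted-gene symbol), were chosen with earlier results of these data known. Genes named outside that rule, most of them for a known role, were chosen after their values were seen. List medians were the same with members at 0 counts in a group, found in 9 of 46 lists, set to their bound. Alternatives were DESeq2 1.42.0, limma 3.58.1 (voom), other scalings and filters, all 11 libraries in the fit, and leaving out libraries. The TAZ-S89A libraries entered only that alternative. A few list members are counted in their lists but are not reported here by name.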

Additional observations from a re-analysis of the deposited data

How the results depend on the processing

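Up to 15 alternatives were compared for the 239 tested genes picked by the rule above, and genes named outside that rule are not among them. The direction of the 239 was the same under every alternative that tested the gene, and 222 always stayed on the same side of the threshold. Apart from the YAP pathway genes, they were picked as called genes with large differences or high levels. Their stability was thus favoured by that choice, and it does not show how robust other genes are. With other scalings, filters, DESeq2 or limma-voom, 8853 to 12619 genes were called, and 10062 with the TAZ-S89A libraries in the fit, against 11524. A further limit of at least 1 on the log2 scale left 3114 higher and 3049 lower genes. Leaving out 1 library gave 10223 to 12639 called genes, 5122 to 6299 of them higher and 5066 to 6340 lower. Leaving out YAP-5SA replicate 2 and YAP-S127A replicate 3 together, an alternative added after seeing the data, gave 13100. No paired analysis was possible because the labels carry no replicate numbers that link the groups. Of the list counts recomputed, 60 differed from the reported count by over 1.5 times, most of them under the strict filter, which removed low genes, or with 1 library left out as given above. With all 11 libraries in the fit, cell cycle genes called higher were 13 in place of 20, and mitochondrial genes called lower 3 in place of 8. The causes of these differences were not tested. With 3 libraries a group, the simulated recovery of small differences was low, in a setting where few genes were changed.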

Other observations

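Gene families outside the lists were chosen after their values were seen and are given as values only. Of 84 tested cytosolic ribosomal protein genes, 55 were lower in YAP-5SA, 5 higher and 24 not called, with a median of -0.45. Their summed level was 25221 to 30116 CPM in YAP-5SA and 38635 to 42090 in YAP-S127A, so the groups did not overlap. Of 357 zinc-finger genes with Zfp symbols, 185 were lower and 47 higher, with a median of -0.42 beside -0.00 over all genes tested. Serpinb genes, which encode intracellular serine protease inhibitors, were higher in 12 of 15 tested members and lower in none, with a median of 2.44. Their summed level was 3570 to 6101 CPM in YAP-5SA and 1975 to 2341 in YAP-S127A. Solute carriers named Slc were higher in 101 and lower in 81 of 253.

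YAP-5SA replicate 2 was the farthest library of its group in several genes of protein folding and translation, also chosen after their values were seen. The chaperonin subunit gene Cct3 was at 453, 1004 and 391.7 CPM in YAP-5SA and 266, 299 and 429 in YAP-S127A. It was called higher (0.90, SE 0.33, adjusted p = 0.0372 in edgeR) although the groups overlapped. The mitochondrial leucyl-tRNA synthetase gene Lars2 was at 236, 554 and 186 in YAP-5SA and 302, 341 and 457 in YAP-S127A and was not called, with replicate 3 the highest of YAP-S127A.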
